A study of Mus musculus with 8 samples.

Results

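The genes of MHC class I antigen presentation were compared between primordial germ cell-like cells made in culture and primordial germ cells of the embryo. The set held 10 mouse genes, chosen by their role and with earlier results of these data known: the heavy chains H2-K1, H2-D1, H2-T23 and H2-M3, the light chain B2m, the peptide transporter and loading genes Tap1, Tap2 and Tapbp, and the inducible proteasome subunits Psmb8 and Psmb9. Of these, 7 were found by Entrez identifier among the 21950 genes of the count table, and H2-D1, H2-T23 and Tap1 were not analysed here. The d6PGCLCs (4 pools) were collected at day 8 of culture from a single female BVSC-iPSC line as cells positive for both the Blimp1-Venus and the Stella-ECFP reporter. The E12.5 PGCs (4 pools) were sorted from gonads of female C57BL/6J embryos by the surface markers SSEA1 and integrin β3. E12.5 names the embryonic day of collection, and no mutation or drug is given for either group. The paper likens d6PGCLCs to migrating PGCs, a stage before that of gonadal PGCs. Stage and sorting markers thus differ between the groups and cannot be told apart from culture. All d6PGCLC pools share that iPSC line, whose strain background is not given in the sources used here, so that cell origin and strain cannot be told apart. This includes the MHC haplotype: heavy chain alleles other than those of the reference genome could map less well, so that the levels and folds of H2-K1 and its relatives hold for reads matching the reference. The pools were labelled as coming from independent experiments, and p-values measure the spread between them.

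Class I molecules are built from a polymorphic heavy chain and the invariant light chain β2-microglobulin. The proteasome cuts cytosolic proteins into peptides, TAP carries them into the endoplasmic reticulum, and tapasin holds empty class I molecules beside TAP until a peptide is bound. Interferon-γ and NF-κB signalling raise these genes in most tissues, whereas early embryonic and germ cells are known for low class I expression.

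Only uniquely mapped reads were counted, and class I heavy chains are a family with near-identical members. For each gene, the longest coding transcript of the GENCODE annotation was cut into windows of 100 bases, the read length, and each window was looked for in transcripts of genes elsewhere in the genome. None of the windows of H2-K1, H2-M3, B2m, Tap2, Psmb8 or Psmb9 was found in another gene, and 0.107% of those of Tapbp were. For H2-D1 and H2-T23 the shares were 4.64% and 7.28%. Among 32 other class I genes with a coding transcript the median share was 0% and the highest was 44.6%, in Gm7030.

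The counted reads ranged from 7991437 to 12024841 per library, at which 3 counts, used here as the limit of detection, correspond to between 0.249 and 0.383 CPM (counts scaled to a common library total with TMM factors). Such limits and the intervals below cover counting error only. The 10 germ cell markers summed to between 2720 and 3140 CPM in d6PGCLC pools and between 3760 and 4580 CPM in E12.5 PGC pools. Of the 10, 4 (Prdm1, Prdm14, Tfap2c and Dppa3) were called higher and 4 (Dazl, Ddx4, Itgb3 and Dnd1) lower in d6PGCLCs. Prdm1 (Blimp1) and Dppa3 (Stella) are the reporter genes by which d6PGCLCs were sorted. Itgb3 encodes the integrin β3 by which E12.5 PGCs were sorted. For these genes sorting and cell state cannot be told apart. The lower sum came largely from Dazl (17.8 to 63.9 against 1020 to 1580 CPM) and Ddx4 (27.2 to 42.8 against 626 to 836 CPM). Germ cells express both once they reach the gonad. Of 12 leukocyte markers, which matter here because leukocytes are rich in class I mRNA, the sum was between 13.4 and 18.9 CPM in d6PGCLC pools and between 4.12 and 8 CPM in E12.5 PGC pools. Ptprc, Adgre1 and Lyz2 had at most 1 count in any library, and C1qa, C1qb and C1qc at most 4. Cd68 and Csf1r were called higher in d6PGCLCs (97 to 137 and 12 to 24 counts against 11 to 36 and 0 counts). Tyrobp (3 to 10 against 7 to 21 counts) and Cd52 (0 to 3 against 2 to 11 counts) were called lower, and most of the sum in d6PGCLCs was Cd68 (9.87 to 14.7 CPM). Sums for endothelial markers (8 genes) were 34.3 to 54.9 CPM in d6PGCLCs and 23.5 to 43.6 CPM in E12.5 PGCs, and those for fibroblast markers (6 genes) were 0.249 to 24.7 CPM and 0.632 to 4.74 CPM. Called higher were 2 of the endothelial markers (Cdh5 and Cldn5) and 1 of the fibroblast markers (Col1a1), and 0 lower. Gonadal somatic markers summed to 0.498 to 1.09 and 1.99 to 4.74 CPM in the same order, and erythroid markers to 0 and 0 to 5.47 CPM. Endoderm and mesoderm markers summed to 0.747 to 1.7 and 9.57 to 13.4 CPM. Called lower in d6PGCLCs were 3 gonadal somatic, 1 erythroid and 5 endoderm or mesoderm markers, and 0 of these types were called higher. The part of these markers in the differences below was not tested, and in pooled cells fewer cells of a type and less RNA per cell cannot be told apart.

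In the mouse genome 6 of the 7 genes analysed lie in the MHC on chromosome 17, and B2m lies on chromosome 2. Class I promoters carry a known module upstream of the start site: an NF-κB site, an interferon response element, and an X2 and a Y box, which are bound by CREB/ATF factors and NF-Y and recruit the class I transactivator NLRC5. The RefSeq promoter sequences (GRCm38.p6) of 9 of the 10 genes were matched, all but Tap2, and the 250 bases before the start were searched on both strands for the letters GGGGATTCCC (NF-κB), TTTCACTTC (part of the interferon response element), TGACG (X2 core) and CCAAT (Y core). The shares of all 32851 promoter entries holding them were 0.0852%, 0.402%, 17.8% and 33.8%. The sequences are shown for the heavy chains and the light chain with values here, since these chains form the class I complex. Each run is 100 bases long and ends with the Y box, and capitals mark every match to the 4 motifs, none of which overlapped in these runs. The H2-K1 stretch is chr17:34000359-34000458 on the minus strand, 111 to 12 bases before the start. That of H2-M3 is chr17:37270118-37270217 on the plus strand, 116 to 17 bases before the start. That of B2m is chr2:122147539-122147638 on the plus strand, 148 to 49 bases before the start.
H2-K1: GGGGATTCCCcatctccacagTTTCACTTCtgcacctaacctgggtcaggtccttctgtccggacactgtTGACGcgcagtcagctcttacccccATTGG
H2-M3: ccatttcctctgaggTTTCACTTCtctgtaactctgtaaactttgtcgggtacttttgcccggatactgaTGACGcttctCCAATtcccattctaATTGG
B2m: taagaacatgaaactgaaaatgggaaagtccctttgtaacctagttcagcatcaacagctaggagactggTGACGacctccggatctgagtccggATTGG

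In all 3 runs TGACG stood exactly 20 bases before ATTGG, the Y box read on the opposite strand. The spacing was a fixed setting of the search, and each run was placed to end with a match to it. Its presence in the 3 runs is therefore not a result, and the counts that follow are a description. This spacing was present in 4 of the 9 promoters matched (H2-K1, H2-D1, H2-M3 and B2m), in 0 of the 26 promoters of other class I genes, and in 30 of all 32851 promoter entries (0.0913%). The 4 genes included 2 that differed by more than 4-fold between the groups and B2m, which was not called, while H2-D1 has no value here. The letters GGGGATTCCC were read from the H2-K1 promoter, as its match to the NF-κB consensus, so that the H2-K1 hit was fixed in advance. They also occurred in H2-D1 and not in the windows of the other 7 genes. Other forms of the NF-κB site were not searched for. TTTCACTTC occurred in H2-K1, H2-D1 and H2-M3. A match describes these letters only and does not show binding.

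Genes were called at an adjusted p (Benjamini-Hochberg) not above 0.05 from edgeR's quasi-likelihood test over all 21950 genes, without a filter on low counts, and all differences are d6PGCLC over E12.5 PGC. Of the 7 genes 4 were called higher in d6PGCLCs (H2-K1, H2-M3, Tap2 and Tapbp), 0 lower (0 also at an unadjusted p under 0.05 and with DESeq2), and 3 (B2m, Psmb8 and Psmb9) were not called. Over all genes 31.5% were called in either direction and 16.1% higher, and over the 11487 genes with a mean of at least 1 CPM 53.6% were called in either direction. With a change of 4-fold or more as a further condition, H2-K1, H2-M3 and Tap2 (3 genes) were still called, where 3.24% of all genes were called higher this way and 3.37% lower. The CPM of the groups did not overlap for the same 4 genes, where 30.2% of all genes had groups apart in either direction and 15.4% had them apart with d6PGCLCs higher. The median log2 fold change of the 7 genes was 2.08, the value of H2-M3, beside 0 over all genes tested. It counts the fitted value of Psmb8, which rests on 6 counts against 1, and with a prior count of 2 the median was 0.855, the value of B2m. Since the genes were chosen with these values known, no p is given for them and the counts are a description.

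**Figure D1:**
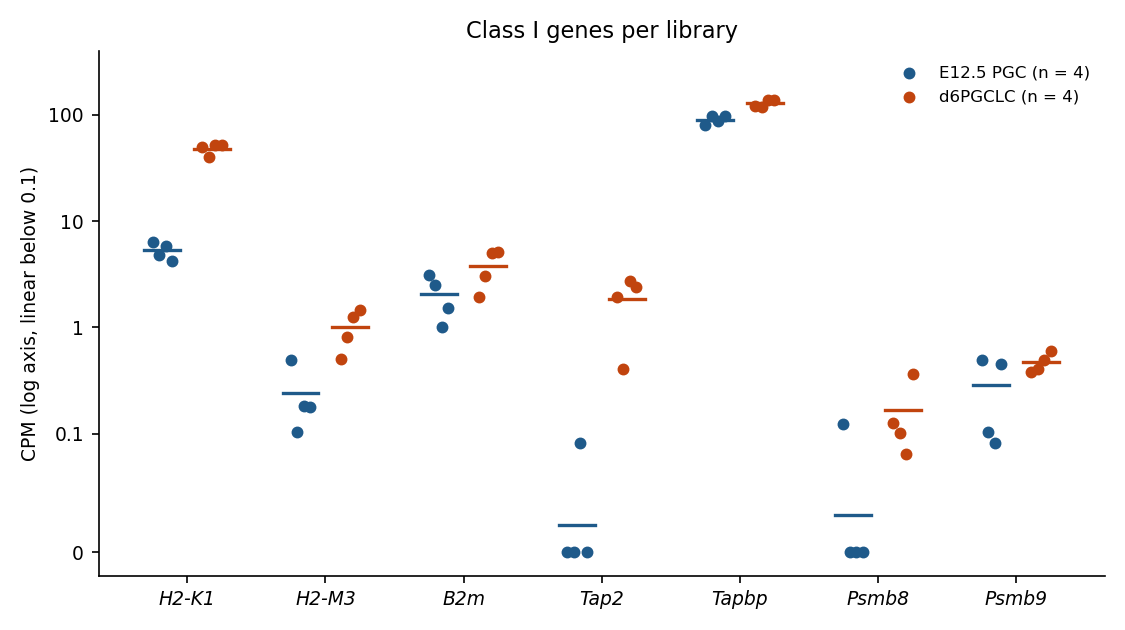
CPM of the 7 genes analysed in each library, on a log axis that is linear below 0.1, with a bar at the group mean and the libraries of a group in order of replicate number from left to right. The groups are apart for H2-K1, H2-M3, Tap2 and Tapbp and overlap for B2m, Psmb8 and Psmb9.

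H2-K1 encodes the classical heavy chain K, which presents peptides to CD8 T cells (chromosome 17, 33996012 to 34000619, GRCm38). It had 388, 390, 623 and 427 counts in the 4 d6PGCLC libraries and 51, 46, 63 and 47 counts in the 4 E12.5 PGC libraries. These are 49.5, 39.7, 51.7 and 51.8 CPM in d6PGCLCs and 6.36, 4.84, 5.81 and 4.24 CPM in E12.5 PGCs. Every d6PGCLC library was thus above every E12.5 PGC library. The means were 48.2 ± 5.74 and 5.31 ± 0.952 CPM (SD, n = 4 each), a log2 fold change of 3.19 (SE 0.16) or 9.1-fold from the fit. The ratio of the summed counts, scaled by library totals, was 9.18 (exact 95% interval 7.94 to 10.65). The spread between libraries was 11.9% of the mean in d6PGCLCs, where counting alone gives 4.68%, and 17.9% in E12.5 PGCs, where counting alone gives 13.9%.

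H2-M3 encodes a nonclassical heavy chain that presents N-formylated peptides of bacteria and mitochondria (chromosome 17, 37270234 to 37274485). It had 4, 8, 15 and 12 counts in d6PGCLCs and 4, 1, 2 and 2 counts in E12.5 PGCs. In d6PGCLCs this was 0.511, 0.814, 1.25 and 1.46 CPM, and in E12.5 PGCs 0.499, 0.105, 0.184 and 0.181 CPM. The lowest d6PGCLC library and the highest E12.5 PGC library, both replicate 1 with 4 counts, were all but level, and 3 of the 4 E12.5 PGC libraries were below the limit of detection of 3 counts. The log2 fold change was 2.08 (SE 0.63), and the scaled ratio of the sums of 39 and 9 counts was 4.5 (2.15 to 10.57). Counting alone gives a spread of 32% of the mean in d6PGCLCs, out of 42.2% observed. Without d6PGCLC replicate 3 or 4, or without E12.5 PGC replicate 2, 3 or 4, the fold of H2-M3 was 1.86 to 1.98 (log2). It was 1.96 with an offset for each library's trend with exonic length, and 1.48 with a prior count of 2. In all these settings H2-M3 was still called but under 4-fold, so that 2 genes of the set were past it.

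B2m encodes the light chain that every classical heavy chain needs to reach the cell surface (chromosome 2, 122147687 to 122153082). Its counts were 15, 30, 60 and 42 in d6PGCLCs and 25, 24, 11 and 17 in E12.5 PGCs. They correspond to 1.91, 3.05, 4.98 and 5.09 CPM in d6PGCLCs and to 3.12, 2.53, 1.01 and 1.53 CPM in E12.5 PGCs. The groups overlapped, since d6PGCLC replicate 1 was below the first and second E12.5 PGC replicates and d6PGCLC replicate 2 below the first. Mean levels were 3.76 ± 1.55 and 2.05 ± 0.95 CPM (SD, n = 4 each), with a log2 fold change of 0.92 (SE 0.36). The spread between libraries was 41.1% and 46.4% of the mean, against 16.5% and 22.8% from counting, so that B2m varied within both groups by more than counting gives. B2m was called higher when d6PGCLC replicate 1 was left out (log2 fold change 1.13) and when E12.5 PGC replicate 1 was left out (1.18), and was not called without any other single library. Its annotated span overlaps that of Patl2 on the opposite strand, and the use of strand in the counting is not stated.

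Levels of different genes were compared only per length, as CPM per kilobase of the counted exons. Heavy chain H2-K1 stood at 24.5 ± 2.92 and 2.70 ± 0.484 on this scale (SD, n = 4, d6PGCLCs and E12.5 PGCs), and the light chain at 3.69 ± 1.52 and 2.01 ± 0.933. The ratio of H2-K1 to B2m per length was 13.4, 6.73, 5.38 and 5.26 in the d6PGCLC libraries and 1.06, 0.992, 2.97 and 1.43 in the E12.5 PGC libraries. Per counted length, H2-K1 was therefore above B2m in each d6PGCLC library, and close to it in 3 of 4 E12.5 PGC libraries. Each length is that of 1 isoform taken at random, so that numbers of mRNA molecules were not compared. Other heavy chains are not in the ratio of H2-K1 to B2m. Among them is Gm8909, which stood at 10.05 ± 0.255 and 7.75 ± 1.36 per length and was not called. In d6PGCLCs the order per length was Tapbp (42.0), H2-K1 (24.5), B2m (3.69), Tap2 (0.63), H2-M3 (0.577), Psmb9 (0.453) and Psmb8 (0.116). The ranges of Tap2, H2-M3 and Psmb9 overlapped, as did those of Tap2 and Psmb8, so that their order is not resolved, and those of Tapbp, H2-K1 and B2m did not. In E12.5 PGCs the order was Tapbp (29.4), H2-K1 (2.70), B2m (2.01), Psmb9 (0.274), H2-M3 (0.139), Psmb8 (0.0213) and Tap2 (0.00776). There H2-K1 and B2m overlapped (2.16 to 3.24 and 0.996 to 3.06), as did Psmb9 and H2-M3, H2-M3 and Psmb8, and Psmb8 and Tap2, the last pair with 1 count each.

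Tap2 encodes 1 of the 2 chains of the TAP transporter (chromosome 17, 34204479 to 34216321). It had 15, 4, 33 and 20 counts in d6PGCLCs and 0, 0, 1 and 0 counts in E12.5 PGCs, a level of 1.91, 0.407, 2.74 and 2.42 CPM against 0.0922 CPM in a single library. All 4 d6PGCLC libraries passed 3 counts and none of the E12.5 PGC libraries did, although replicate 2 of the d6PGCLCs held only 4. From sums of 72 and 1 counts the scaled ratio was 74.8, with an exact 95% interval of 13 to 2996 that reflects the single count. The fitted log2 fold change of 5.63 (SE 1.71) depends on the default prior count of edgeR and fell to 3.17 with a prior count of 2. Without E12.5 PGC replicate 3, no library of that group held a count and the fit gave 7.17, which is no bound. The span of Tap2 overlaps the noncoding genes Gm20496 and Gm15821 on the opposite strand.

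Tapbp encodes tapasin, the bridge between TAP and empty class I molecules (chromosome 17, 33919478 to 33929290). It had the highest level per length of the 7 genes in both groups, with 949, 1173, 1655 and 1136 counts in d6PGCLCs and 647, 918, 939 and 1072 counts in E12.5 PGCs. The levels were 121.1, 119.4, 137.3 and 137.7 CPM in d6PGCLCs and 80.7, 96.6, 86.6 and 96.8 CPM in E12.5 PGCs. The groups were apart by a narrow step compared with H2-K1, with means of 128.9 ± 9.98 and 90.2 ± 7.90 CPM (SD, n = 4 each). The log2 fold change was 0.52 (SE 0.10), or 1.43-fold (scaled ratio 1.43, 1.37 to 1.49). Its counted span overlaps that of Gm19412 on the opposite strand, so that reads there cannot be assigned with certainty, while Zbtb22 on the same strand ends at 33919325, before the counted span.

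Psmb8 and Psmb9 encode LMP7 and LMP2, the catalytic subunits that interferon-γ brings into the immunoproteasome in place of Psmb5 and Psmb6. Psmb8 (chromosome 17, 34198195 to 34201454) had 1, 1, 1 and 3 counts in d6PGCLCs and 1, 0, 0 and 0 counts in E12.5 PGCs. It did not pass the limit of detection in any library, and no fold is given. Psmb9 (chromosome 17, 34182030 to 34187330) had 3, 4, 6 and 5 counts in d6PGCLCs and 4, 1, 1 and 5 counts in E12.5 PGCs. The groups overlapped, the log2 fold change was 0.73 (SE 0.67), and the scaled ratio was 1.7 (0.761 to 3.98), so that a difference was not detectable at this depth. The start site of Psmb9 at 34187330 and that of Tap1 at 34187556 lie 226 bases apart on opposite strands. The authors kept at random a single gene of those with overlapping promoters.

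The constitutive counterparts were abundant in both groups. Psmb6 (β1) was at 382.7 ± 70.4 CPM in d6PGCLC pools and 356.6 ± 40.1 CPM in E12.5 PGC pools, Psmb5 (β5) at 93.6 ± 11.9 and 85.0 ± 12.1 CPM, and Psmb7 (β2) at 226 ± 16.7 and 221.8 ± 16.8 CPM (SD, n = 4 each). None of the 3 was called, at an unadjusted p under 0.05 or with DESeq2 either (adjusted p from edgeR's quasi-likelihood test of 0.628, 0.478 and 1, log2 differences of 0.10, 0.14 and 0.03). Per length, Psmb9 made up between 0.106% and 0.198% of the sum of Psmb9 and Psmb6 in d6PGCLCs, and between 0.0308% and 0.204% in E12.5 PGCs. Psmb8 made up between 0.0412% and 0.192% of the sum with Psmb5 in d6PGCLCs and at most 0.0903% in E12.5 PGCs. Psmb10, the third inducible subunit (MECL-1, in place of Psmb7), was above the detection limit in all 8 libraries and made up 3.18% to 4.97% and 2.44% to 3.3%. Psmb10 was at 4.9 ± 1.1 and 3.32 ± 0.567 CPM, a log2 difference of 0.57 (SE 0.25) that did not pass the test (adjusted p = 0.0931, edgeR's quasi-likelihood test).

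**Figure D2:**
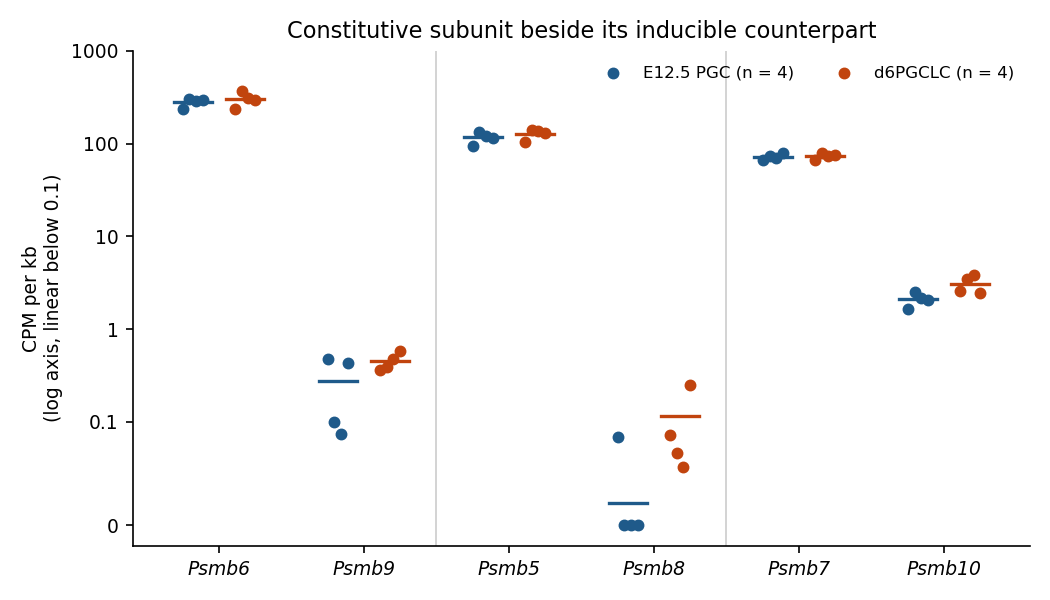
Level of the constitutive catalytic proteasome subunits Psmb6, Psmb5 and Psmb7, each beside its inducible counterpart, in CPM per kilobase of exon per library on a log axis that is linear below 0.1, with a bar at the group mean. Psmb9 and Psmb8 lie below 1 in all 8 libraries, Psmb10 between 1.65 and 3.86, and the constitutive subunits above 60.

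The other genes of the pathway were taken from lists written together with the set, again with earlier results known. Of 135 such genes in the table, 25 were called higher and 21 lower in d6PGCLCs (34.1% in all), where 31.5% of all genes and 53.6% of those with a mean of at least 1 CPM were called. The counts by list below are to be read beside the 16.1% of all genes called higher and the 15.4% called lower. Of the 31 other class I and class I-like heavy chain genes 6 were called higher, all by more than 4-fold, and 0 lower (1 at an unadjusted p under 0.05, 0 with DESeq2, 1 with the likelihood ratio test and 1 with a length offset that removes each library's trend with exonic length), and the median log2 fold change was 0.15, beside 0 over all genes. Of the 31, 17 had at most 3 counts in every library. H2-Bl, a nonclassical gene named for its expression in the blastocyst, had 360, 770, 655 and 504 counts in d6PGCLCs and 16, 69, 31 and 33 in E12.5 PGCs. The difference was 3.98 on the log2 scale (SE 0.26, adjusted p = 1.04e-10, edgeR's quasi-likelihood test), and its level per length in d6PGCLCs was 45.1, where H2-K1 stood at 24.5. The other 5 (H2-Q4, H2-Q2, H2-Q7, Fcgrt and Gm11127) had fewer counts and are named after their values were seen. H2-Q4, a gene of the Q region, had 71, 58, 140 and 91 counts in d6PGCLCs and 2, 0, 2 and 2 counts in E12.5 PGCs, a scaled ratio of 62.3 (28.4 to 171). H2-Q2 of the same region had 14, 12, 26 and 26 counts and 0, 1, 1 and 0 counts. Fcgrt, the heavy chain of the neonatal Fc receptor, which also pairs with the B2m product, had 30, 30, 29 and 13 counts in d6PGCLCs and 3, 14, 4 and 4 in E12.5 PGCs. Of the windows of 100 bases, 2.83% of H2-Q4, 16.4% of H2-Q7 and 42.7% of Gm11127 were shared with other genes, so that the counts of these family members are uncertain.

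**Figure D3:**
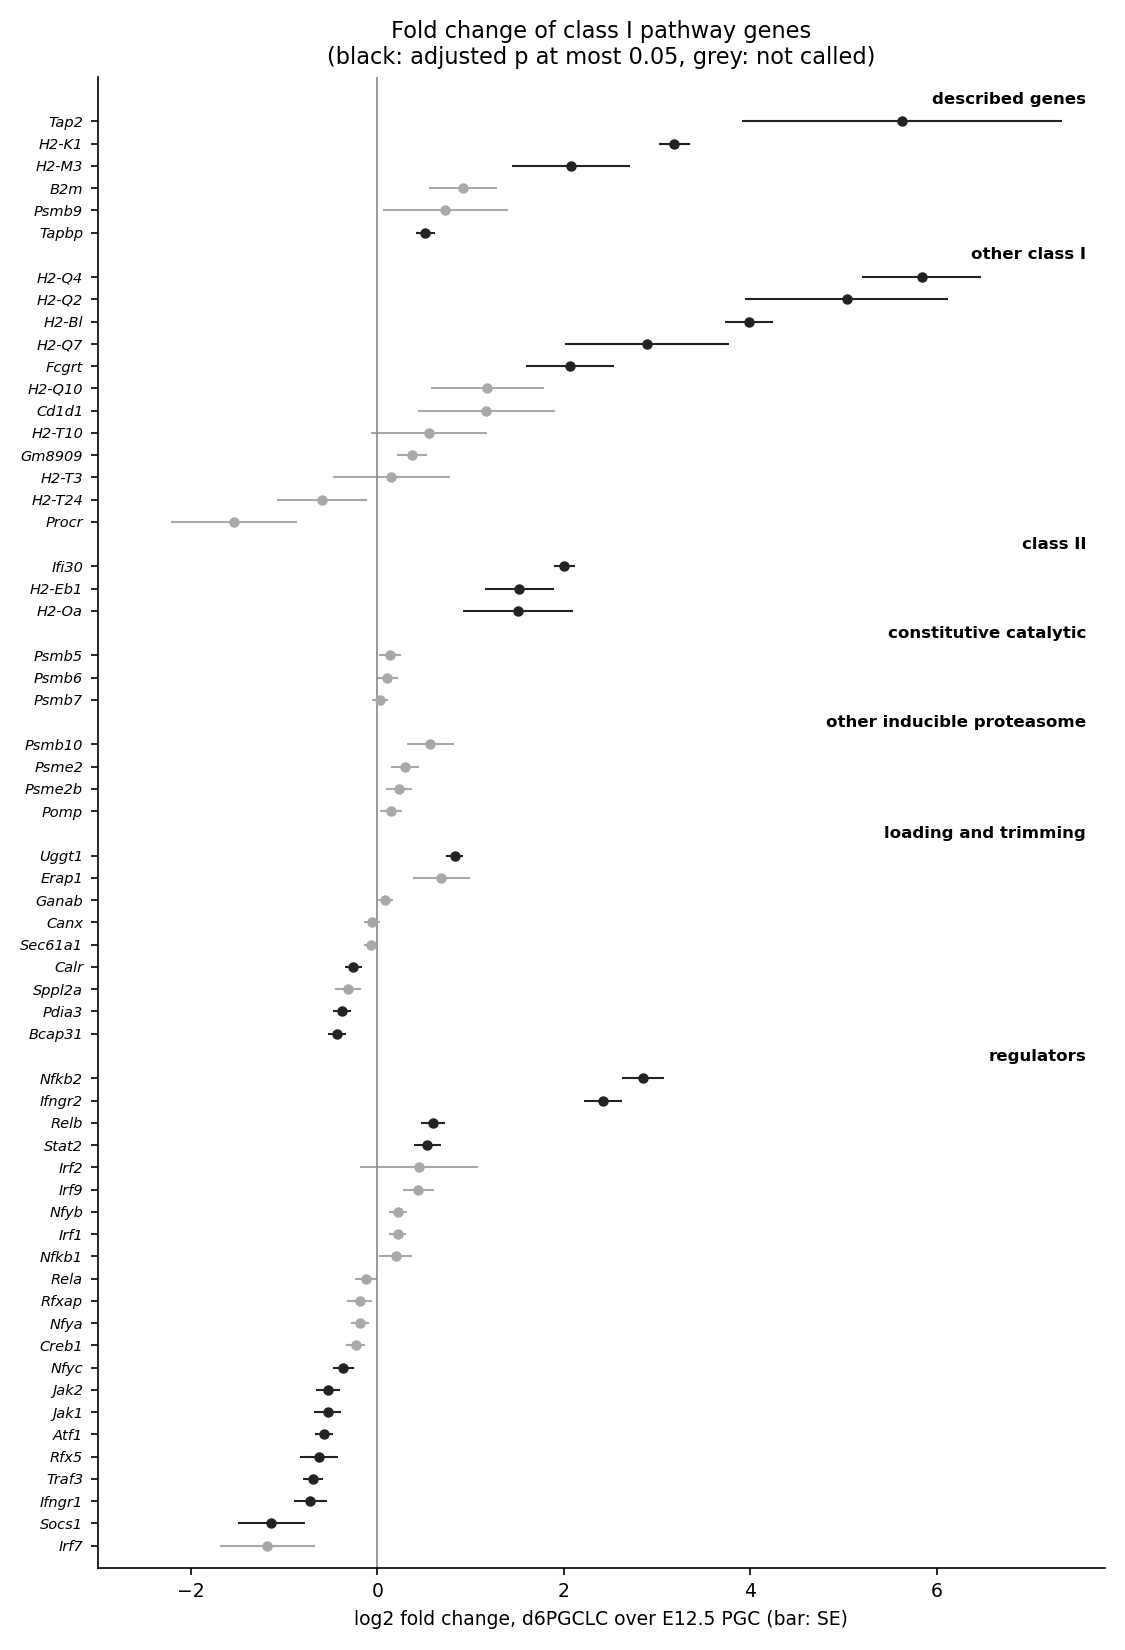
Log2 fold change, d6PGCLC over E12.5 PGC, with its standard error for genes of the class I pathway with at least 20 counts in all and a count in both groups, by list. The described genes lie between 0.52 and 5.63, and the constitutive catalytic subunits lie near 0.

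Most genes that serve class I loading also fold glycoproteins in general. Of 9 loading and trimming genes 1 was called higher and 3 lower, and the median log2 fold change was -0.07. Calreticulin (Calr), which holds the heavy chain in the loading complex, was at 786.2 ± 97.8 CPM in d6PGCLC pools and 942.2 ± 25.8 CPM in E12.5 PGC pools (log2 fold change -0.26), and Pdia3 (ERp57), which pairs with tapasin, at 413.6 ± 56.8 and 538.4 ± 37.8 CPM (-0.38). Both were called lower (adjusted p = 0.0309 and 0.00366, edgeR's quasi-likelihood test), as was Bcap31 (-0.44). Uggt1, the glucosyltransferase that returns misfolded glycoproteins to calreticulin, was called higher at 220.5 ± 13.55 and 123.9 ± 8.84 CPM (log2 fold change 0.83, adjusted p = 2.07e-07, edgeR's quasi-likelihood test). Erap1, which trims peptides in the endoplasmic reticulum, was at 3.55 ± 1.16 and 2.24 ± 0.533 CPM and was not called (adjusted p = 0.0988, edgeR's quasi-likelihood test). These loading genes other than Tapbp are named after their values were seen. Of the 32 other proteasome core and regulatory subunits 4 were called higher and 8 lower. The change past 4-fold among them was that of Psma8, the α subunit of germ cell proteasomes, at 8.04 ± 3.76 CPM in d6PGCLC pools and 33.0 ± 0.368 CPM in E12.5 PGC pools (log2 fold change -2.05, SE 0.22, adjusted p = 2.47e-07, edgeR's quasi-likelihood test). Of 9 cytosolic peptidases 2 were called higher and 2 lower, and of 5 other interferon-inducible proteasome genes 0 were called by edgeR's quasi-likelihood test (1 at an unadjusted p under 0.05, 0 with DESeq2). Without single libraries some of these counts moved. The subunits called lower were 11 without d6PGCLC replicate 2, 5 without d6PGCLC replicate 3 or E12.5 PGC replicate 2 or 3 and 4 without E12.5 PGC replicate 4, and with the length offset they were 14. The peptidases called lower were 1 without d6PGCLC replicate 3 or 4 or any E12.5 PGC replicate, the loading genes called higher were 2 without d6PGCLC replicate 2, and the inducible proteasome genes called higher were 2 without d6PGCLC replicate 1.

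Among 25 regulators of class I promoters and of interferon-γ signalling, 4 were called higher and 8 lower. Nlrc5, the class I transactivator, had 1, 0, 2 and 1 counts in d6PGCLCs and 0, 0, 1 and 0 counts in E12.5 PGCs, below the detection limit in all 8 libraries. Its class II relative Ciita had 2 counts in 1 d6PGCLC library and 0 in the other 7. Rfx5, a subunit of the RFX complex that binds the X1 box, was lower in d6PGCLCs, with 137, 118, 159 and 99 counts against 247, 153, 238 and 173 (log2 fold change -0.62, adjusted p = 0.0203, edgeR's quasi-likelihood test), and lost the call without E12.5 PGC replicate 1 (-0.39) or d6PGCLC replicate 2 or 4 (-0.57 each). Irf1, the interferon regulatory factor of class I promoters, was abundant in both groups at 181.4 ± 11.6 and 155.9 ± 13.99 CPM and was not called (adjusted p = 0.0817, edgeR's quasi-likelihood test). Past 4-fold were Nfkb2, the p52 precursor of noncanonical NF-κB, and Ifngr2, the signalling chain of the interferon-γ receptor. Under 4-fold, and named after their values were seen, Relb and Stat2 were called higher and Atf1, Nfyc, Jak1, Jak2, Traf3 and Socs1 lower. The NF-κB subunit genes Rela and Nfkb1, named likewise, were not called (log2 fold change -0.12 and 0.20). Nfkb2 was at 21.9 ± 2.87 CPM in d6PGCLC pools and 3.03 ± 1.01 CPM in E12.5 PGC pools (log2 fold change 2.85, SE 0.22, adjusted p = 1.53e-09, edgeR's quasi-likelihood test). Ifngr2 was at 30.5 ± 7.41 and 5.66 ± 1.56 CPM (2.42, SE 0.21, adjusted p = 6.39e-09, edgeR's quasi-likelihood test), while the ligand-binding chain Ifngr1, named after its values were seen, was lower at 7.74 ± 0.783 and 12.8 ± 1.14 CPM (-0.72, adjusted p = 0.00229).

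For class II presentation, the pathway of professional antigen-presenting cells, 5 of 11 genes were called higher by edgeR's quasi-likelihood test, 2 by DESeq2, 2 with the replicate block, 2 without d6PGCLC replicate 2 and 3 without E12.5 PGC replicate 1, 2 or 3, and 0 lower (0 at an unadjusted p under 0.05, 0 with DESeq2). Ifi30, a lysosomal thiol reductase, was the abundant gene among them, at 80.6 ± 4.72 CPM in d6PGCLC pools and 20.1 ± 2.05 CPM in E12.5 PGC pools (log2 fold change 2.00, SE 0.11, adjusted p = 2.08e-11, edgeR's quasi-likelihood test). Of the class II chains, H2-Eb1 was called higher at 3.18 ± 1.39 and 1.11 ± 0.269 CPM (log2 fold change 1.52, adjusted p = 0.0023, edgeR's quasi-likelihood test), as were H2-Oa (41 counts in all against 15), H2-Aa (11 against 0) and H2-DMb2 (8 against 0), all 4 named after their values were seen. The invariant chain Cd74 had at most 3 counts in any library and H2-Ab1 had 0 in all 8. Of 10 ligands of natural killer cell receptors 3 were called higher and 0 lower by edgeR's quasi-likelihood test (0 lower at an unadjusted p under 0.05, 0 with DESeq2).

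The MHC between the start of Tapbp and the end of H2-M3 (chromosome 17, 33919478 to 37274485) was tabulated after the values were seen. Of 121 genes there outside the presentation lists, 31 were called higher and 13 lower (36.4% in all, beside 31.5% of all genes). Past 4-fold were 11 of the higher and 3 of the lower genes, and the median log2 fold change of the 121 was 0.06. Over all genes 16.1% were called higher and 15.4% lower, and 3.24% and 3.37% with the 4-fold condition. Of the 6 described genes in the interval 4 were called higher, of 22 other class I genes 5, and of 7 class II genes 4. Higher and lower genes were interspersed along the interval. Those past 4-fold included Neu1, the lysosomal sialidase, higher by 2.69 on the log2 scale, and Hspa1a and Hspa1b, the stress-inducible Hsp70 genes, lower by 6.42 and 5.16 on the log2 scale between H2-K1 and the Q region.

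**Figure D4:**
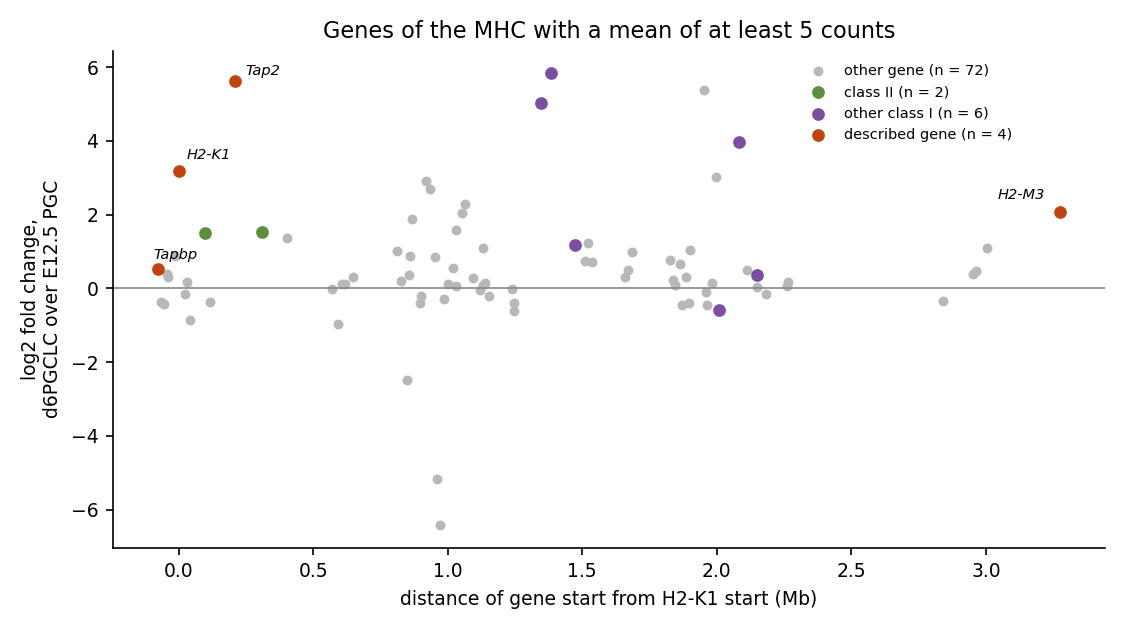
Log2 fold change, d6PGCLC over E12.5 PGC, of the 84 genes of this MHC interval with a mean of at least 5 counts, by distance of the gene start from the start of H2-K1 in Mb. Described genes (4) are above 0, of which H2-M3 and Tap2 reach the mean count through d6PGCLCs, and the genes outside the presentation lists (72) lie on both sides of 0.

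Genes with a pattern like that of the set were ranked by Pearson's r over the 8 libraries between log2(CPM + 0.5) and the mean standardized profile of the 5 genes with at least 10 counts in some library. The highest of 11484 candidates with a mean of at least 1 CPM were Slc4a5 (0.998), Car4 (0.992), Dner, Armcx2 and Atp8b2 (0.989 each). H2-M3 and Tap2 entered this profile through their counts in d6PGCLCs. Since the 8 points fall into 2 groups, a high value mainly shows that a gene was higher in d6PGCLCs, and 991 candidates were above 0.9.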

How the data were processed

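RNA of 4 d6PGCLC and 4 E12.5 PGC pools was sequenced as stranded poly(A) libraries with single-end reads of 100 bases. The authors deposited unnormalized whole-number counts of reads with a single genome position, 1 value per gene and pool, after aligning with STAR to GRCm38 (mm10) and counting with QuasR over the exons of 1 isoform per gene taken at random. The deposited table also gives the exonic length of that isoform. Of genes with overlapping promoters the authors retained a randomly picked one, and whether strand was used is not given in the sources used here. Reads with several positions were lost, which lowers near-identical family members.

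Entrez identifiers were matched to RefSeq symbols (43 of 21950 unmatched), and 8 of 8 columns were assigned to a sample by title. Library totals were 7991437 to 12024841 counts. In R 4.3.3, counts were scaled by TMM and fitted with edgeR 4.0.16 (quasi-likelihood, cell type as the only term, no filter), with adjustment over all genes. All pairs of libraries within a group differed by more than sampling noise (the lowest chi-square over its degrees of freedom was 3.19). The fit was also run on simulated data, and no outcome of that run is given here.

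The genes, lists and tests were chosen with earlier results of these data known. All 10 genes of the set are named, further genes are those of each list called past 4-fold with a mean of at least 50 counts, at most 4 a list, and Psmb5, Psmb6, Psmb7, Psmb10, Nlrc5, Irf1, Rfx5, Ciita and the 5 most similar patterns. Another gene that the rule names is left out of the text and figures. Alternatives were other scalings, the likelihood ratio test of the study, DESeq2 1.42.0, filters, another prior count, a replicate block, a stricter threshold, a length offset and leaving out each library. Oocyte and chromatin data were not analysed here.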

Additional observations from a re-analysis of the deposited data

Results flagged for a closer look

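Single libraries stood apart from the other 3 of their group in 5 of 41 sets of 4 libraries examined. The usual rate of about 1 in 20, or 2 sets, does not apply to such low counts. A library with any count beside 3 libraries at 0 is always flagged, so that 5 is not to be read against 2. All 5 rest on 1 to 3 counts. Tap2 was at 0.0922 CPM in E12.5 PGC replicate 3, from 1 count, and at 0 in the other 3 replicates. Psmb8 was at 0.3637 CPM in d6PGCLC replicate 4, from 3 counts, and next highest at 0.128 CPM, and in E12.5 PGC replicate 1 it was at 0.1248 CPM, from 1 count, with 0 in the others. Nlrc5 was at 0.0922 CPM in E12.5 PGC replicate 3, from 1 count, and at 0 in the others. Ciita was at 0.2036 CPM in d6PGCLC replicate 2, from 2 counts, and at 0 in the others.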

How the results depend on the processing

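H2-K1, H2-M3, Tap2 and Tapbp stayed called and higher in d6PGCLCs under every alternative in which they were tested, with log2 fold changes of 3.07 to 3.28, 1.48 to 2.59, 3.17 to 7.17 and 0.43 to 0.55. The lowest values of H2-M3 and Tap2 came from a prior count of 2, and the highest value of Tap2 from leaving out E12.5 PGC replicate 3, the library with its single count. The filter on CPM above 1 in at least 3 samples dropped H2-M3, Psmb8 and Psmb9, and 3 of the set were called, 2 of them past 4-fold. The filterByExpr filter dropped H2-M3, Tap2, Psmb8 and Psmb9, so that 2 of the set were called with it and 1 past 4-fold. Over all genes those called past 4-fold numbered 938 and 847 with these filters, which test fewer genes, and 832 with a prior count of 2, which shrinks low counts, instead of 1452. At an adjusted p of 0.01 or less, 12 rather than 21 other genes of the pathway were called lower, and with the length offset 30. Leaving out each library, 4 to 5 genes of the set were called and 2 to 3 past 4-fold. Of the other pathway genes 21 to 28 were then called higher and 15 to 23 lower, and over all genes 3093 to 3636 higher, 2885 to 3430 lower and 1324 to 1411 past 4-fold. H2-K1 per length was then 23.85 to 25.96 in d6PGCLCs and 2.52 to 2.89 in E12.5 PGCs. Psmb7 changed sign around 0, to -0.008 with library size alone, -0.013 with the upper quartile, -0.057 with the length offset and between -0.018 and 0.073 without single libraries, as did Psmb6 (-0.016 to 0.205 without single libraries), while Ciita went to 0 (up to 2.74). Their causes were not tested. Replicate numbers are shared by the groups. The correlations of same-numbered deviations over 11487 genes were 0.30, 0.11, -0.04 and 0.04. The highest correlations with another number were 0.045, 0.13, 0.143 and -0.001 in the same order. Numbers 1 and 4 were thus nearest their own number, and numbers 2 and 3 were not. Whether a number marks a shared batch was not tested. With the replicate block 5 genes of the set were called, B2m being the added one (log2 fold change 0.92), Irf1 among the other genes was called too (0.22), the class II genes called higher fell from 5 to 2 and the other class I genes from 6 to 5, and 3708 genes were called higher and 3562 lower. Counts of 0 to 60 limit what can be said of H2-M3, B2m, Tap2, Psmb8 and Psmb9.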
